A study of Mus musculus with 39 samples.

Results

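The 6 genes described here, Wif1, Dkk2, Dkk3, Sostdc1, Sfrp1 and Frzb, encode secreted proteins that are grouped here as Wnt antagonists. They were picked by symbol from the count tables of microglia, which list 46333 genes for females and 54532 for males, and each symbol had 1 row in each table. The choice rested on measured values: Wif1 and Dkk2 had been seen to rise and Sostdc1 to fall with the 5XFAD genotype in the female table. For this reason the 5XFAD and WT values of the 6 genes in females are given below as a description without a test, and tests are reported for males and for the effect of treatment.

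Wnt proteins are secreted ligands that bind Frizzled receptors and the coreceptors LRP5 and LRP6, which lets β-catenin accumulate and act with TCF/LEF factors on target genes such as Axin2. Secreted antagonists interrupt this chain outside the cell. WIF1 and the Frizzled-related proteins SFRP1 and FRZB bind Wnt ligands, whereas DKK2 and SOSTDC1 bind the coreceptors, and SOSTDC1 also binds bone morphogenetic proteins. DKK3 is a divergent Dickkopf family member. In the brain, choroid plexus, meninges and vessels are known sources of several of these proteins, and microglia around amyloid plaques take on a program called disease-associated microglia (DAM).

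Microglia were isolated from the cerebrum with magnetic beads against CD11b, a marker that other myeloid cells also carry, and their RNA was sequenced in bulk. Mice were WT or 5XFAD, a line on the C57BL/6J and B6SJL background that develops amyloid plaques and whose transgenes are driven in neurons by the Thy1 promoter. From 4 months of age they were kept in normoxia (NX, 21% oxygen) or in chronic intermittent hypoxia (CIH), in which oxygen cycled between 21% and a low level at 90 s intervals in the mice's rest phase. Females were harvested at 10 months, after 6 months of treatment, and males at 8 months, after 4 months. The low level is 6.5% for 8 h per day in the sample labels and 6% for 12 h per day in the methods of the study. Groups held 5 libraries each, except 4 for WT NX females, for 39 libraries in all (19 from females, 20 from males). Sex, age, length of treatment and sequencing table went together and cannot be told apart, and each table was analysed on its own. The labels number the samples of a group without naming the animal, so the p-values measure the spread between these samples.

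Reads counted on genes came to between 14731683 and 25906121 in the libraries of females and between 13457293 and 23095627 in those of males. A limit of 3 reads in 1 library, used below as the smallest amount taken as detected, corresponds to 0.110 to 0.202 CPM in females and 0.122 to 0.232 CPM in males. CPM here means counts scaled to the TMM-adjusted size of the library, and it compares 1 gene between libraries of a table. The label microglia held for the defining markers: all 12 microglial genes of the list had group means above 1 CPM, and their sum was 31140 to 41050 CPM in female and 29210 to 44030 CPM in male libraries. Markers of other cells were present at lower sums. Over female and male libraries, astrocyte markers summed to 142 to 668.9 and 136 to 1051 CPM, oligodendrocyte markers to 142.5 to 454.3 and 187.7 to 606.1 CPM, endothelial markers to 107.8 to 530.2 and 112.8 to 446.8 CPM, neutrophil markers to 1101 to 1585 and 931.2 to 2371 CPM, and neuronal markers to at most 30.9 and 34.4 CPM. Most of the neutrophil sum came from 1 gene, Csf3r, with group means of 966 to 1291 CPM. Astrocyte and oligodendrocyte sums that differed between genotypes are given beside the results they moved with. Both NX groups of females held a library that stood apart. In 5XFAD NX females replicate 4, the 23 DAM genes summed to 14690 CPM, below all 9 WT female libraries (15990 to 25780 CPM), whereas the other 4 libraries of its group had 64660 to 105200 CPM. In WT NX females replicate 1, Spp1 was at 2562 CPM and Gpnmb at 760.3 CPM, 2 DAM genes that were at no more than 21.7 and 1.96 CPM in the other 8 WT female libraries. Genotype differences of the antagonists in NX females are therefore given with and without these libraries. The number of genes called between genotypes in NX females was 869, and it was 1880 without 5XFAD NX replicate 4, 525 without WT NX replicate 1 and, the lowest count on leaving out 1 library, 27 without WT NX replicate 3.

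Of the 6 genes, Dkk2 and Wif1 differed most between genotypes in both tables, and the sequences before their starts are shown for that reason. Dkk2 (ENSMUSG00000028031) occupies chr3:132085292-132180304 on the plus strand and Wif1 (ENSMUSG00000020218) chr10:121033960-121100650 on the plus strand of GRCm38. RefSeq promoter sequence was at hand for 3 of the 6 genes, Wif1, Dkk2 and Frzb. The window for Dkk2 is the 250 bases before its start, chr3:132085042-132085291, and that for Wif1 is the 206 bases before its first annotated base, chr10:121033754-121033959, both GRCm38.p6, plus strand, 5′ to 3′. Capitals mark matches on either strand to the TCF/LEF cores CTTTGA and CTTTGT, the PU.1 core GAGGAA (PU.1 being the main myeloid lineage factor) and the TATA box TATAAA.
Dkk2: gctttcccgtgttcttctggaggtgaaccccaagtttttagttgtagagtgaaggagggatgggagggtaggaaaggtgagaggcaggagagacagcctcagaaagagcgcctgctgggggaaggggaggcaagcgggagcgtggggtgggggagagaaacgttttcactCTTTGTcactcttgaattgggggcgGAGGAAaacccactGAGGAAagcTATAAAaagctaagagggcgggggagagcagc
Wif1: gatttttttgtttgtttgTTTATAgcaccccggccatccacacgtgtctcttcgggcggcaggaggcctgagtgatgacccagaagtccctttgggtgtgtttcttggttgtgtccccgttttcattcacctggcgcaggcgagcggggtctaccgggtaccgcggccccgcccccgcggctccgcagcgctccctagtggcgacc
The Dkk2 window held 1 match to CTTTGT, 2 to GAGGAA and 1 to TATAAA, the last starting at base 219 of 250. The Wif1 window held 1 match, to TATAAA read on the opposite strand at base 19, and none to the other letters searched. Dkk2 had 55.6% and Wif1 61.7% G and C, with 7 and 17 CpG dinucleotides. Such matches are common: of 32851 windows of 250 bases before a start, 13.8% held CTTTGA, 16.5% CTTTGT, 23.3% GAGGAA and 12.4% TATAAA on either strand. The matches are a description of letters and not of binding.

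Per gene length, Dkk2 had the highest mean of the 6 antagonists in 5XFAD microglia, and Sostdc1 was the highest of the 6 in WT microglia. In 5XFAD NX females the mean level was 16.8 ± 11.4 FPKM (SD, n = 5) for Dkk2, 1.67 ± 1.21 FPKM for Wif1, 0.428 ± 0.428 FPKM for Sostdc1, 0.327 ± 0.104 FPKM for Dkk3, 0.136 ± 0.144 FPKM for Sfrp1 and 0.0642 ± 0.121 FPKM for Frzb. Dkk2 was above Wif1 in 4 of the 5 libraries (9.46 to 25.7 against 0.658 to 3.31 FPKM), and in replicate 4 it was below it (0.218 against 0.303 FPKM). The neighbours from Wif1 down differed by less than the sum of their SDs. In 5XFAD NX males the order began with Dkk2 (10.4 ± 3.19 FPKM), Sostdc1 (1.82 ± 0.783 FPKM) and Wif1 (0.853 ± 0.315 FPKM). In WT NX microglia Sostdc1 led with 2.86 ± 1.69 FPKM in females (n = 4) and 3.25 ± 1.55 FPKM in males (n = 5), and no other member exceeded 0.346 FPKM on average. Of the coreceptors that DKK2 and SOSTDC1 bind, Lrp5 had group means of 34.9 to 43.5 FPKM in females and 16.4 to 20.6 FPKM in males, and Lrp6 had 12 to 13.7 and 4.99 to 6.88 FPKM.

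A gene was called where the edgeR quasi-likelihood F test gave a false discovery rate below 0.05 and an absolute log2 fold change (log2FC) above 1, among genes with more than 1 CPM in at least 3 libraries. In the male NX comparison 5 of the 6 antagonists passed that filter, Wif1, Dkk2 and Dkk3 were called higher in 5XFAD and their groups did not overlap. Of all 14834 genes tested there, 5.94% were called higher and 2.31% lower, and 8.57% had 5XFAD libraries all above and 7.42% all below the WT libraries. In the male CIH comparison 5 passed, Wif1 and Dkk2 were called higher without overlap and Sfrp1 lower, where 11.8% of 14793 genes were called higher and 6.88% lower, and 19.4% lay all above and 16.6% all below. Since Wif1 and Dkk2 passed the filter only through 5XFAD in both comparisons, Dkk3 only through 5XFAD under NX and Sfrp1 only through WT under CIH, these counts are no measure of the family. The p-values given below for these genes are likewise no independent support for a difference, and the values in each library are what the description rests on. The same genes were also called when no filter was applied. In the female comparisons, whose values chose the genes, 4.40% of genes were called higher and 1.59% lower in 5XFAD under NX, and 8.83% higher and 4.12% lower under CIH. Female 5XFAD libraries lay all above the WT libraries for 3.43% of genes under NX and 18.8% under CIH, and all below for 7.99% and 19.7%.

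**Figure D1:**
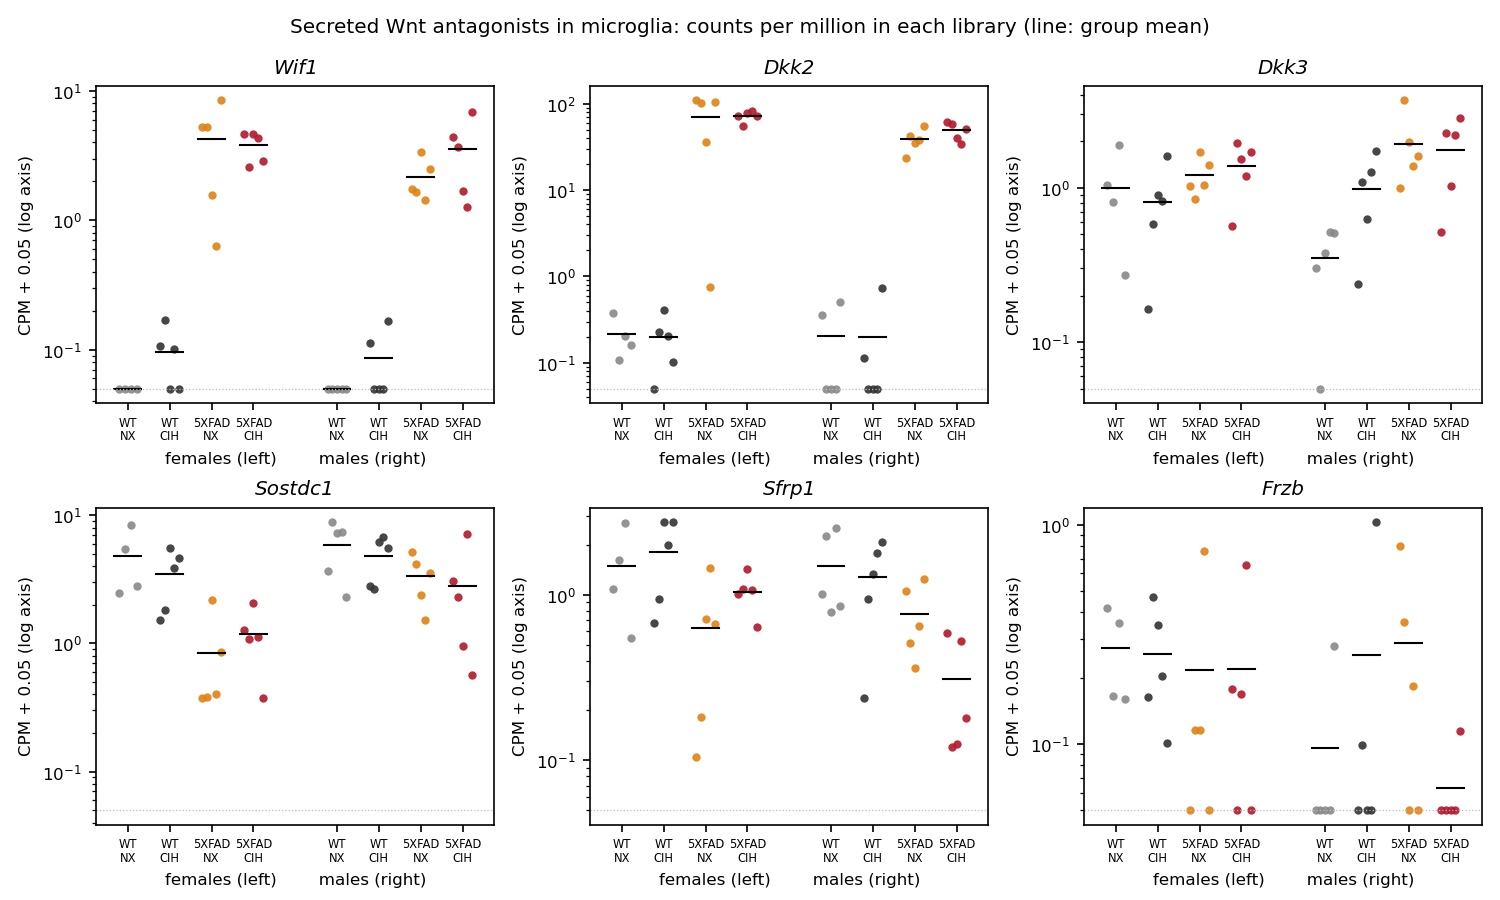
CPM plus 0.05 of each antagonist on a log axis, in the 4 groups of females (left) and males (right); each point is a library, the horizontal line is the group mean and the dotted line marks 0 reads. Wif1 and Dkk2 separate the genotypes in both tables, with 5XFAD NX female replicate 4 at 0.705 CPM of Dkk2, whereas Frzb is below 1 CPM in every library.

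Wif1, which encodes a Wnt-binding protein, had almost no reads in WT microglia and was detected in every 5XFAD library of both sexes. All 4 WT NX female libraries had 0 reads, and the 5XFAD NX females had 5.24, 5.26, 1.53, 0.588 and 8.40 CPM (97, 79, 23, 10 and 136 reads). WT CIH females had 0.0569, 0.119, 0, 0.0514 and 0 CPM, against 4.56, 2.53, 4.59, 4.25 and 2.82 CPM in 5XFAD CIH females. The groups did not overlap in either comparison, and the lowest 5XFAD value was the library that stood apart. That library also had 0.705 CPM of Frzb, against at most 0.0665 CPM in the rest of its group. Its 10 reads of Wif1 are read with that limit. The 5XFAD NX mean of 4.20 ± 3.16 CPM (n = 5) was at least 27.8-fold higher than 3 reads in each WT library would give, and it was 5.11 ± 2.81 CPM (n = 4) without replicate 4. WT NX replicate 1 had 0 reads like the other 3. In CIH females the means were 0.0454 ± 0.0492 and 3.75 ± 0.994 CPM (n = 5 each), with a log2FC of 6.19 (SE 0.476).

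In males Wif1 passed the filter only through the 5XFAD libraries, and its p-values are read with that limit. All 5 WT NX libraries had 0 reads, and the 5XFAD NX libraries had 1.70, 1.62, 3.33, 1.40 and 2.46 CPM (27, 21, 43, 21 and 35 reads). The groups did not overlap, and the 5XFAD mean of 2.10 ± 0.794 CPM was at least 12.7-fold higher than 3 reads per WT library (edgeR quasi-likelihood F test, adjusted p = 0.000349). With CIH, WT males had 0.0626, 0, 0, 0 and 0.115 CPM, which is 3 reads in all, and 5XFAD males had 4.32, 3.61, 1.65, 1.21 and 6.87 CPM. Again the groups did not overlap (log2FC 6.40, SE 0.789, adjusted p = 1.37e-05), and the ratio of scaled reads was 101.3, with a 95% counting interval of 34.28 to 494.5.

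Sfrp1 encodes a Frizzled-related protein that binds Wnt ligands. WT CIH males had 0.188, 0.887, 1.28, 1.74 and 2.02 CPM, against 0.540, 0.0708, 0.0750, 0.473 and 0.130 CPM in 5XFAD CIH males (7, 1, 1, 9 and 2 reads). The groups overlapped through WT CIH replicate 1, and the other 4 WT libraries were above every 5XFAD library. The means were 1.22 ± 0.722 and 0.258 ± 0.230 CPM (log2FC −2.18, SE 0.696, edgeR adjusted p = 0.0179), and over the alternatives that gave a value the adjusted p ranged from 0.00313 to 0.0451. Sfrp1 passed the filter only through WT CIH replicates 3, 4 and 5 and was not tested when any of them was left out, so the call gives no independent support for a lower level in 5XFAD. These replicates also had the highest fibroblast marker sums of their group (9.43, 12.05 and 12.8 CPM, against 5.00 and 4.93 CPM in replicates 1 and 2). The same held for choroid plexus markers (835.3, 933.8 and 887 against 466.3 and 374 CPM). The part of these markers in the Sfrp1 difference was not tested. Under NX the values were 0.965, 2.21, 0.733, 2.48 and 0.803 CPM in WT males and 1.00, 0.463, 0.309, 0.599 and 1.197 CPM in 5XFAD males. These overlapped, and Sfrp1 was not called (log2FC −0.99, SE 0.570, adjusted p = 0.284). Whether the genotype difference itself changed with CIH was tested by the interaction of genotype and treatment, which was not called (log2FC −1.21, SE 0.909, adjusted p = 0.411).

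In females Sfrp1 was 1.03, 1.56, 2.66 and 0.499 CPM in WT NX and 0.0540, 0.133, 0.664, 1.41 and 0.618 CPM in 5XFAD NX. The group ranges overlapped, with replicate 4 as the highest 5XFAD library, and the log2FC was −1.30 (SE 0.745) with it and −1.98 without it. Without WT NX replicate 1 it was −1.44, and without WT NX replicate 3, the highest library, −0.82. With CIH the WT females had 0.626, 0.892, 2.70, 1.95 and 2.68 CPM and the 5XFAD females 0.964, 1.03, 1.37, 1.01 and 0.591 CPM. These overlapped as well (log2FC −0.81, SE 0.405).

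Frzb, the other Frizzled-related protein of the list, was at the edge of detection and passed the filter in no comparison. Over all libraries it had 65 reads in females and 41 in males, with 0 reads in 4 of 19 female and 13 of 20 male libraries. The highest library had 12 reads in females (5XFAD NX replicate 4, 0.705 CPM) and 17 reads in males (WT CIH replicate 5, 0.980 CPM). A difference between groups was not detectable at this depth.

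Dkk2, which encodes a Dickkopf protein that binds LRP5 and LRP6 and forms a complex with Kremen proteins, had the highest mean of the 6 genes in 5XFAD microglia. WT NX females had 0.331, 0.0579, 0.154 and 0.111 CPM (9, 1, 3 and 2 reads), and 5XFAD NX females had 109.6, 101.5, 36.6, 0.705 and 104.7 CPM (2030, 1525, 551, 12 and 1696 reads). The groups did not overlap, but replicate 4 was more than an order of magnitude below the rest of its group and nearer to the WT libraries. Its 12 reads of Dkk2 stood beside 12 reads of Frzb and 1.116 CPM of Kremen2. Both of these genes were at most 0.0665 CPM in the rest of that group. The means were 0.163 ± 0.118 and 70.6 ± 49.2 CPM, and the 5XFAD mean was 88.1 ± 34.5 CPM (n = 4) without replicate 4. The log2FC was 8.56 (SE 1.40) with that library and 8.86 without it. WT NX replicate 1 was the highest WT library, and without it the WT mean was 0.107 ± 0.0480 CPM (n = 3) and the log2FC 9.24. In CIH females, WT libraries had 0, 0.178, 0.360, 0.154 and 0.0516 CPM and 5XFAD libraries 72.0, 55.2, 79.2, 83.5 and 72.8 CPM. The 5 5XFAD CIH values lay close together, at 72.5 ± 10.8 CPM (log2FC 8.91, SE 0.257).

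The male libraries showed the same separation for Dkk2, which here too passed the filter only through 5XFAD. WT NX males had 0.305, 0, 0, 0 and 0.459 CPM and 5XFAD NX males 23.8, 42.9, 34.8, 38.3 and 55.4 CPM. The groups did not overlap, with means of 0.153 ± 0.216 and 39.0 ± 11.5 CPM (log2FC 7.95, SE 0.582, edgeR adjusted p = 1.41e-06). WT CIH males had 0.0626, 0, 0, 0 and 0.692 CPM, the last from 12 reads in replicate 5, and 5XFAD CIH males had 61.4, 58.8, 40.5, 34.0 and 51.5 CPM. These did not overlap either, with means of 0.151 ± 0.304 and 49.2 ± 11.7 CPM (log2FC 8.32, SE 0.50, adjusted p = 1.31e-08).

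Dkk3, the divergent Dickkopf gene, was called in 1 comparison, NX males, where it passed the filter only through 5XFAD. WT NX males had 0.254, 0, 0.326, 0.470 and 0.459 CPM (5, 0, 8, 7 and 8 reads), and 5XFAD NX males had 0.942, 3.62, 1.93, 1.33 and 1.55 CPM (15, 47, 25, 20 and 22 reads). The groups did not overlap, with means of 0.302 ± 0.192 and 1.88 ± 1.04 CPM (log2FC 2.61, SE 0.707, edgeR adjusted p = 0.0217). This call rested on 1 library: without 5XFAD NX replicate 2, the highest of its group, the adjusted p was 0.0622 (log2FC 2.23). With the replicate number as a block the adjusted p was 0.143, and over all alternatives it ranged from 0.000407 to 0.143. Markers of other brain cells moved with it. Astrocyte markers summed to 136 to 188.9 CPM in WT NX males and 385.1 to 1051 CPM in 5XFAD NX males, without overlap, and 4 of 10 were called higher in 5XFAD, beside 5.94% of all genes. Most of the rise in the sum came from Gfap (group means of 0.377 and 386.7 CPM). Slc1a3, the highest of the list in WT, was lower in 5XFAD (132.8 and 87.6 CPM). The log2FC was above 0 for 8 of the 10, with a median of 1.47. Of the 10 oligodendrocyte markers 3 were called higher, with sums of 187.7 to 345.5 against 281.1 to 606.1 CPM. The library on which the Dkk3 call rested, replicate 2, had the highest sums of its group for astrocyte (1051 CPM), oligodendrocyte (606.1 CPM), endothelial (446.8 CPM), neuronal (34.4 CPM), fibroblast (10.5 CPM) and neutrophil (2371 CPM) markers. Of the 10 endothelial markers Flt1 (22.6 ± 16.6 CPM in WT, 104.2 ± 21.6 CPM in 5XFAD) and Slc2a1 (77.7 ± 16.1 and 157 ± 37.1 CPM) were called higher and Pecam1 (51.4 ± 8.01 and 22.01 ± 6.46 CPM) lower, and the other 7, Cdh5 and Cldn5 among them, were not called. The part of these markers in the Dkk3 difference was not tested. In CIH males the values were 0.188, 1.03, 0.578, 1.21 and 1.67 CPM in WT and 0.463, 2.19, 0.974, 2.15 and 2.79 CPM in 5XFAD. They overlapped and Dkk3 was not called (log2FC 0.88, SE 0.562, adjusted p = 0.21). Astrocyte sums were 158.5 to 234.5 CPM in WT and 226.5 to 634.6 CPM in 5XFAD CIH males. Of the 10 markers 2 were called higher and 1 lower, beside 11.8% and 6.88% of all genes. The interaction for Dkk3 was not called (log2FC −1.74, SE 0.901, adjusted p = 0.233). In that fit the astrocyte markers had a median log2FC of −1.56, with 1 of 10 above 0 and 0 called. Their part in the Dkk3 values was not tested.

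In females Dkk3 was 0.992, 0.752, 1.84 and 0.222 CPM in WT NX and 0.972, 0.798, 1.66, 0.999 and 1.36 CPM in 5XFAD NX. The ranges overlapped, and the log2FC was 0.27 (SE 0.50), or 0.30 without 5XFAD replicate 4 and 0.29 without WT replicate 1. It was 0.79 without WT replicate 3 and turned to −0.052 without WT replicate 4. With CIH the values were 0.114, 0.535, 0.841, 0.771 and 1.55 CPM in WT and 0.514, 1.91, 1.49, 1.15 and 1.64 CPM in 5XFAD females. These ranges overlapped too (log2FC 0.82, SE 0.494). Astrocyte sums in CIH females were 160.7 to 203.1 CPM in WT and 233.6 to 668.9 CPM in 5XFAD. Of the 10 markers 5 were called higher, beside 8.83% of all genes. The 5XFAD CIH library with the highest Dkk3, replicate 2, also had the highest astrocyte sum. Their part in the Dkk3 values was not tested.

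Sostdc1, whose product binds LRP5 and LRP6 and bone morphogenetic proteins, was lower in 5XFAD than in WT microglia on average in all 4 genotype comparisons, by the widest margin in NX females. WT NX females had 2.42, 5.38, 8.40 and 2.77 CPM, and 5XFAD NX females had 0.324, 0.333, 2.12, 0.352 and 0.803 CPM. The groups did not overlap, and replicate 3 was the highest 5XFAD library. The means were 4.74 ± 2.77 and 0.787 ± 0.774 CPM, and the log2FC was −2.60 (SE 0.624), or −2.42 without 5XFAD replicate 4 and −2.82 without WT replicate 1, the lowest WT library. Without 5XFAD replicate 3 it was −3.35. In CIH females the values were 1.48, 1.78, 5.46, 3.80 and 4.59 CPM in WT and 1.22, 1.03, 2.03, 1.08 and 0.328 CPM in 5XFAD. These overlapped through 5XFAD replicate 3 (log2FC −1.57, SE 0.438).

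In males the difference in Sostdc1 was smaller and was not called. WT NX males had 3.61, 8.83, 7.17, 7.32 and 2.24 CPM and 5XFAD NX males 5.09, 4.09, 2.32, 1.46 and 3.52 CPM. The groups overlapped (log2FC −0.82, SE 0.421, edgeR adjusted p = 0.22). WT CIH males had 2.75, 2.61, 6.16, 6.68 and 5.48 CPM and 5XFAD CIH males 3.01, 2.27, 0.899, 7.15 and 0.519 CPM. In this comparison 5XFAD replicate 4 was above every WT library (log2FC −0.74, SE 0.542, adjusted p = 0.272), and without it the log2FC was −1.49 with an adjusted p of 0.0253, which would be a call. Over all alternatives the adjusted p of Sostdc1 in CIH males ranged from 0.0253 to 0.455.

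Markers of the choroid plexus, the epithelium that makes cerebrospinal fluid and a known site of Sostdc1 expression, were measured beside it. The 11 markers, among them Ttr (transthyretin), Kl (klotho) and Clic6, were all detected in every group and none was at 0 in all libraries of a group. Their sum was 336.2 to 993.1 CPM in WT NX females against 25.3 to 277.6 CPM in 5XFAD NX females, without overlap, and 202.1 to 1088 against 93.3 to 431.3 CPM in CIH females. In males it was 502.7 to 1660 against 165.3 to 695.5 CPM under NX, and 374 to 933.8 against 356.5 to 1200 CPM under CIH. The 1200 CPM belonged to 5XFAD CIH male replicate 4, the library with 7.15 CPM of Sostdc1. The other 4 libraries of that group had nearly the same sum (371.2, 356.5, 367.5 and 377.2 CPM in replicates 1, 2, 3 and 5) and 3.01, 2.27, 0.899 and 0.519 CPM of Sostdc1. So narrow a range of sums cannot show whether the gene followed them. The sum of the 11 markers came mostly from Ttr, with group means of 92.7 to 868.1 CPM. Set against this sum, Sostdc1 was 7.74 ± 0.609 CPM per 1000 CPM of markers in WT NX females (n = 4) and 7.79 ± 3.76 in 5XFAD NX females (n = 5), and in males 6.37 ± 2.39 and 6.90 ± 2.01 under NX. With CIH it was 6.25 ± 1.18 and 5.04 ± 1.64 in females and 6.72 ± 0.644 and 4.85 ± 2.83 in males. The part of these markers in the Sostdc1 difference was not tested beyond these values. In bulk samples fewer cells of a type and less RNA per cell cannot be told apart.

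Of the choroid plexus list 1 of 11 genes was called lower in 5XFAD NX females, 3 of 11 in 5XFAD CIH females, none in 5XFAD NX males and 1 of 11 in 5XFAD CIH males, with medians of −1.75, −0.96, −0.98 and −0.79 on the log2 scale. The median over all genes tested was −0.02, −0.02, 0.02 and −0.06, and 1.59%, 4.12%, 2.31% and 6.88% of all genes were called lower. The log2FC was below 0 for all 11 in the first 3 comparisons and for 10 of 11 in CIH males. In the same order 10, 7, 7 and 3 of the 11 had an unadjusted p below 0.05 from the edgeR quasi-likelihood test, beside 4945 of 14513, 8521 of 14911, 4435 of 14834 and 8227 of 14793 of all genes.

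**Figure D2:**
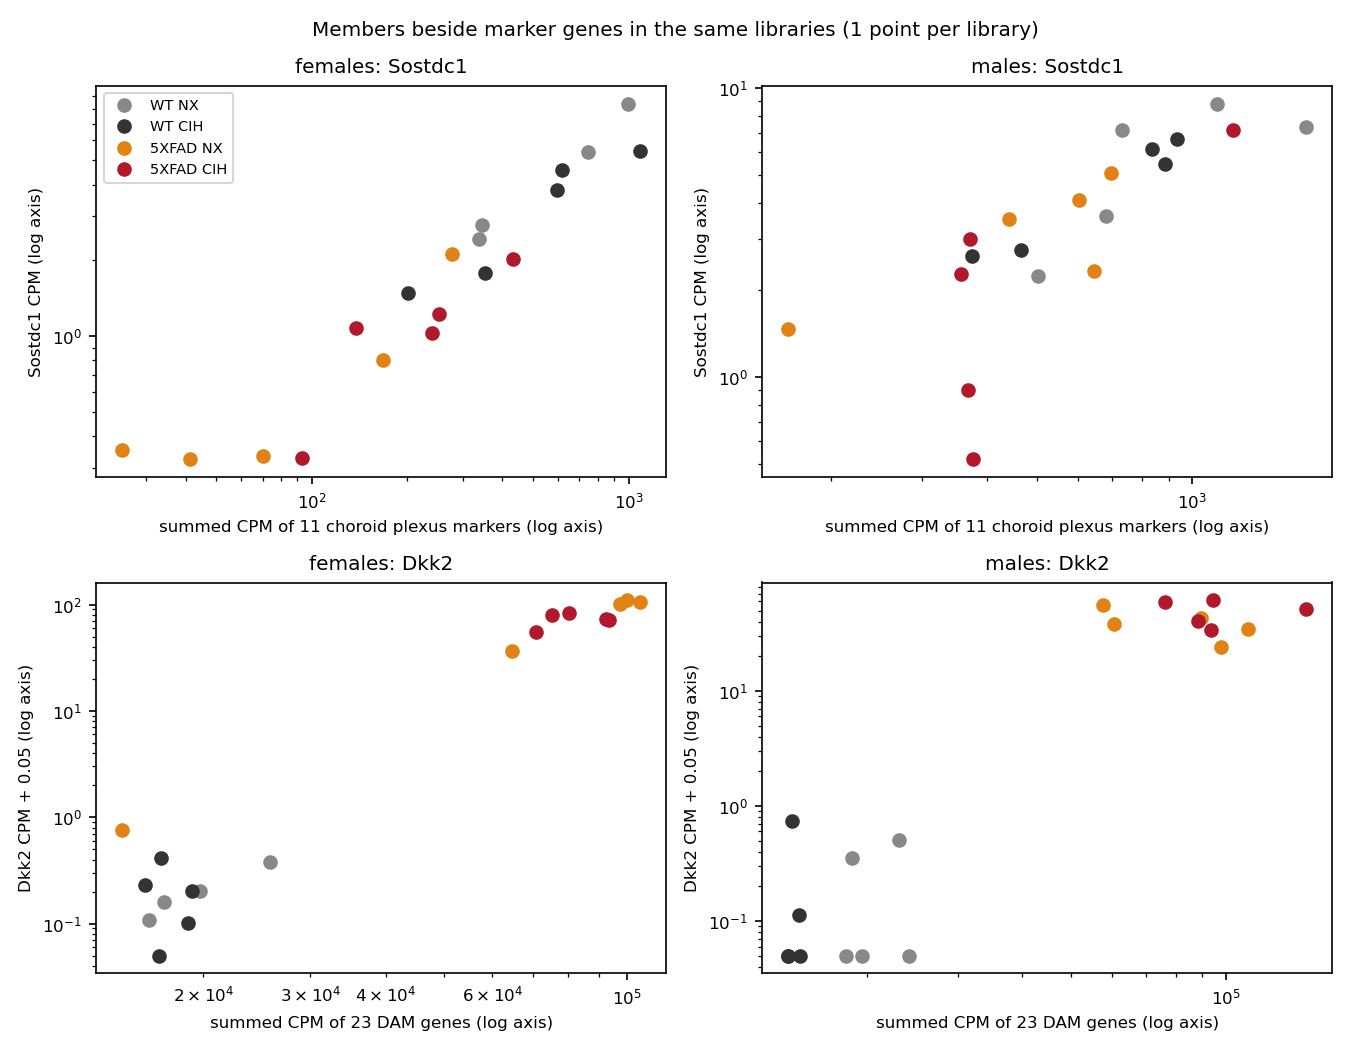
Top, Sostdc1 CPM against the summed CPM of 11 choroid plexus markers; bottom, Dkk2 CPM plus 0.05 against the summed CPM of 23 DAM genes; females left, males right, both axes log, 1 point per library and colors by group. The 3 lowest marker sums are those of 5XFAD NX females (25.3 to 70.5 CPM), with 0.324 to 0.352 CPM of Sostdc1, the 4 5XFAD CIH males at 356.5 to 377.2 CPM of markers spread from 0.519 to 3.01 CPM of Sostdc1, and the 1 orange point among the WT libraries of the Dkk2 panel for females is 5XFAD NX replicate 4 (14690 CPM of DAM genes).

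The DAM program separated the genotypes along with Dkk2 and Wif1. Of the 23 DAM genes, which include Apoe, Trem2 and Spp1, 17 were called higher in 5XFAD NX females and all 23 in 5XFAD CIH females, 5XFAD NX males and 5XFAD CIH males, where 4.40%, 8.83%, 5.94% and 11.8% of all genes were called higher. Their summed level was 14030 to 25780 CPM over all WT libraries and 57770 to 143500 CPM over all 5XFAD libraries apart from female NX replicate 4. Among 5XFAD males, the library with the highest DAM sum (143500 CPM, CIH replicate 5) had the highest Wif1 value (6.87 CPM), whereas NX replicate 5 had the lowest sum (57770 CPM) and the highest Dkk2 of the NX group (55.4 CPM). In 5XFAD NX females, Dkk2 was 109.6, 101.5, 36.6, 0.705 and 104.7 CPM where the DAM sum was 100100, 97520, 64660, 14690 and 105200 CPM, so that both were lowest in replicate 4 and next lowest in replicate 3. Gfap made up most of a rise in astrocyte markers in CIH females, with group means of 0.700 CPM in WT and 238.1 CPM in 5XFAD. Astrocyte sums also differed between genotypes without overlap in CIH females (160.7 to 203.1 CPM in WT, 233.6 to 668.9 CPM in 5XFAD). Endothelial sums did so in CIH females (107.8 to 237.3 and 313.1 to 406.8 CPM), CIH males (118.8 to 226.8 and 230.2 to 365.6 CPM) and NX males (112.8 to 319.1 and 320.8 to 446.8 CPM), but in each of the 3 the rise came from Flt1 and Slc2a1 while Pecam1 was called lower, and the median log2FC of the 10 genes was −0.49, −0.23 and 0.19. The part of the DAM genes and of these markers in the Dkk2 and Wif1 values was not tested.

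The effect of CIH played no part in the choice of genes, and none of the antagonists was called for CIH by the edgeR quasi-likelihood test. In WT females 3 of the 6 could be tested (Dkk3, Sostdc1 and Sfrp1) and in 5XFAD females 4 (Wif1, Dkk2, Dkk3 and Sostdc1). Log2FC values for CIH were −0.32, −0.47 and 0.30 in WT females and −0.15, 0.05, 0.22 and 0.55 in 5XFAD females, with adjusted p of at least 0.96. On leaving out 1 library that of Dkk3 ranged from −0.64 to −0.046 in WT females, over the 6 fits that tested it. In 5XFAD females it ranged from 0.059 to 0.43. Without 5XFAD NX replicate 4 the log2FC was −0.44 for Wif1 and −0.27 for Dkk2 (adjusted p = 0.793 and 0.81), so the direction for Dkk2 turned, and over their alternatives the adjusted p ranged from 0.793 to 1 for Wif1 and from 0.81 to 1 for Dkk2. No antagonist had an unadjusted p below 0.05. Over all genes, 0 of 14583 were called in WT females and 0 of 14578 in 5XFAD females, with 565 and 470 at an unadjusted p below 0.05 and 0 by the likelihood ratio test and DESeq2. Without WT NX replicate 1 the log2FC for CIH in WT females was −0.68 for Sostdc1 and 0.17 for Sfrp1 (adjusted p = 1 for both), and Dkk3 was not tested. On leaving out each library in turn these values ranged from −0.70 to −0.032 for Sostdc1 and from 0.024 to 0.78 for Sfrp1, and that of Sostdc1 in 5XFAD females from 0.24 to 1.33, with WT NX replicate 3 giving −0.032 and 0.78, WT NX replicate 4 giving 0.024 and 5XFAD NX replicate 3 giving 1.33.

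In WT males 2.51% of 14983 genes were called for CIH, and none of the 3 antagonists tested was. Dkk3 came nearest, having passed the filter only through WT CIH replicates 2, 4 and 5, so that its p-value is no independent support and no test was had when any of these was left out. WT NX males had 0 to 0.470 CPM and WT CIH males 0.188 to 1.67 CPM, and the ranges overlapped through WT CIH replicate 1 (log2FC 1.62, SE 0.741, unadjusted p = 0.0439, adjusted p = 0.114). Under edgeR's likelihood ratio test the adjusted p was 0.0454, which would be a call, and over the 14 alternatives that gave an adjusted p it ranged from 0.0454 to 0.189. In the same comparison 1 of 9 astrocyte and 2 of 10 oligodendrocyte markers were called higher with CIH (median log2FC 1.18 and 0.65). Of the neutrophil markers 6 of 10 were called lower (median −1.40). The part of these markers in the Dkk3 value was not tested. Sostdc1 (log2FC −0.30, SE 0.366, adjusted p = 0.576) and Sfrp1 (log2FC −0.22, SE 0.570, adjusted p = 0.809) were not called. In 5XFAD males 4 antagonists were tested, with log2FC of 0.75 for Wif1, 0.33 for Dkk2, −0.12 for Dkk3 and −0.24 for Sostdc1 and adjusted p of at least 0.994. On leaving out 1 library the log2FC ranged from 0.38 (without 5XFAD CIH replicate 5) to 0.97 for Wif1 and from 0.21 to 0.49 for Dkk2. None of the 4 had an unadjusted p below 0.05. There, 0 of 14334 genes were called, with 473 at an unadjusted p below 0.05, and 1 each by the likelihood ratio test and DESeq2.

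The Dkk2 and Wif1 levels of 5XFAD microglia overlapped between NX and CIH in both sexes. Dkk2 was 70.6 ± 49.2 and 72.5 ± 10.8 CPM in females and 39.0 ± 11.5 and 49.2 ± 11.7 CPM in males, and Wif1 was 4.20 ± 3.16 and 3.75 ± 0.994 CPM in females and 2.10 ± 0.794 and 3.53 ± 2.28 CPM in males. The interaction of genotype and treatment in males was not called for Wif1 (log2FC −1.71, SE 1.03, adjusted p = 0.305), Dkk2 (log2FC 0.36, SE 1.12, adjusted p = 0.866) or Sostdc1 (log2FC 0.06, SE 0.740, adjusted p = 0.966). Single libraries moved these values: the Dkk2 interaction was 3.20 without WT CIH replicate 5 and −0.51 without WT NX replicate 5, and that of Sostdc1 turned in 8 of the 20 fits that left out 1 library, ranging from −0.68 to 0.33. The Wif1 interaction ranged from −2.11 to −0.77, the latter without WT CIH replicate 5. With WT levels of Wif1 and Dkk2 at a few reads or none, the standard errors of about 1 leave room for a change of several fold. No gene of 15813 was called for the interaction by the quasi-likelihood test, with 3857 at an unadjusted p below 0.05, and 175 were called by the likelihood ratio test and 308 by DESeq2.

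**Figure D3:**
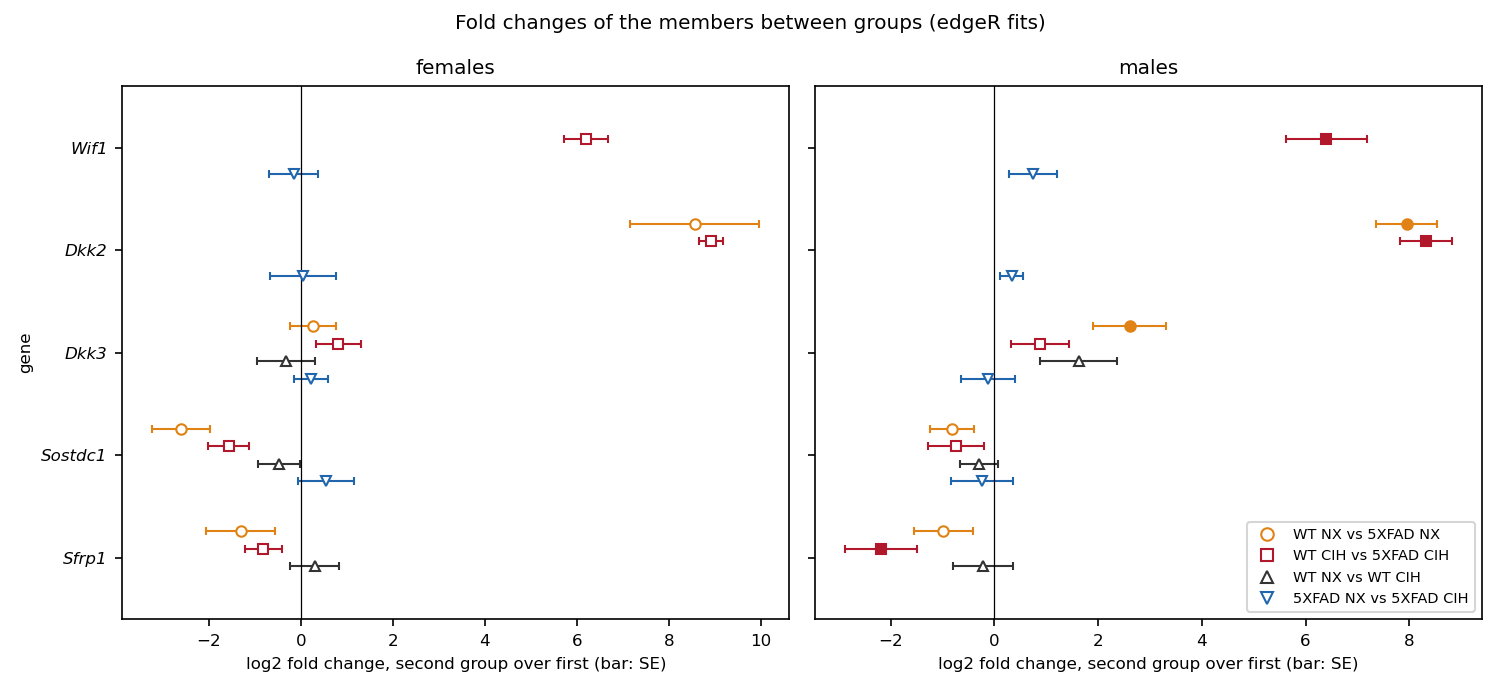
Log2FC of 5 antagonists (second group over first) with SE as bars, females left and males right; filled symbols passed an FDR of 0.05 and an absolute log2FC of 1, female genotype values (circles and squares, left) were not tested, and genes below the filter or at 0 reads in the first group are left out. In males Wif1 (CIH), Dkk2 (both), Dkk3 (NX) and Sfrp1 (CIH) are filled, and the triangles of CIH against NX lie within 2 of 0.

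Among themselves the antagonists varied together to different degrees. Over the libraries of a table, log2 CPM of Wif1 and Dkk2 had a Pearson r of 0.963 in females (19 libraries) and 0.966 in males (20 libraries), values that the difference between genotypes sets in large part: for deviations from the group means r was 0.735 and 0.459. Sostdc1 and Sfrp1 had r of 0.732 and 0.744, and 0.648 and 0.618 for deviations from the group means. Dkk3 had r of 0.338 with Wif1 and 0.453 with Dkk2 in females and 0.63 and 0.642 in males, and with these 2 genes between −0.24 and 0.273 for deviations from the group means. For such deviations Dkk3 had r of 0.578 with Sfrp1 and 0.491 with Sostdc1 in females, but 0.014 and −0.096 in males. These values describe libraries that share genotype, table and cell preparation.

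The genes whose log2 CPM followed each antagonist most closely were taken from 15582 female and 15813 male genes. For Wif1 they were Hectd2os, Corin and Osbpl3 in females (r 0.972 to 0.977) and Nat8l, Spp1 and Serpinb1c in males (r 0.978 to 0.98). For Dkk2 they were Gm5182, Arhgap26 and Arrdc4 in females (r 0.99 to 0.992) and Rab7b, Trpm1 and Gpnmb in males (r 0.979 to 0.985). Spp1 and Gpnmb, which encode osteopontin and a lysosomal glycoprotein, belong to the DAM list. Sostdc1 was followed by Atp1b1, Kl and Clic6 in females (r 0.955 to 0.961) and by Car12, Enpp2 and Sulf1 in males (r 0.891 to 0.937), and Kl and Clic6 belong to the choroid plexus list. For Sfrp1 the genes were Tmtc1, Myo5b and Cfap69 in females (r 0.916 to 0.935) and Zkscan7, Elovl6 and Prmt9 in males (r 0.782 to 0.82). For Dkk3 they were S100a16, Limch1 and Me1 in females (r 0.835 to 0.847) and Ntm, Dbndd2 and Wasf3 in males (r 0.849 to 0.868). No gene was named for the same antagonist in both tables.

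The coreceptors that DKK2 and SOSTDC1 bind did not pass both limits in any comparison. Lrp5 was 170.1 ± 19.0 CPM in WT NX and 166.8 ± 5.37 CPM in 5XFAD NX females (log2FC −0.03, SE 0.0824, adjusted p = 0.842) and 201.7 ± 29.1 and 162.1 ± 20.8 CPM in males (log2FC −0.31, SE 0.130, adjusted p = 0.121). Lrp6 was 117.5 ± 8.79 and 127.4 ± 10.9 CPM in NX females (log2FC 0.12, SE 0.0831, adjusted p = 0.339) and 68.7 ± 8.68 and 83.1 ± 27.8 CPM in NX males (log2FC 0.28, SE 0.202, adjusted p = 0.411). In WT males Lrp6 was higher with CIH, at 95.01 ± 14.8 CPM (log2FC 0.47, SE 0.115, adjusted p = 0.00717), under the fold limit for a call. Kremen1, a receptor for Dickkopf proteins, had group means between 28.1 and 34.5 CPM and adjusted p of at least 0.402 between genotypes. Kremen2 had 72 reads over all female and 22 over all male libraries. Axin2, the feedback target of β-catenin, had group means between 1.01 and 1.73 CPM and was not called, with log2FC between genotypes of 0.31 and −0.11 in females and −0.67 and 0.12 in males (adjusted p of at least 0.394).

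Of 83 other Wnt pathway genes (ligands, receptors, signal carriers, targets, R-spondins and further antagonists), 40 to 45 passed the filter in the genotype comparisons. In NX females 40 were tested, 4 were higher in 5XFAD (Rspo1, Fzd9, Ptk7 and Bambi) and none lower, where 4.40% of all genes were called higher and 1.59% lower. In CIH females 6 of 44 were higher (with Pygo1 and Fzd7 added) and Tcf7l2 was lower, against 8.83% higher and 4.12% lower of all genes. In NX males 4 of 41 were higher (Rspo1, Fzd5, Fzd9 and Bambi) and Tcf7l2 was lower, against 5.94% and 2.31%. In CIH males 5 of 45 were higher (Rspo1, Fzd7, Fzd9, Ptk7 and Bambi) and Wnt2b, Fzd4 and Fzd6 were lower, against 11.8% and 6.88%. The median log2FC of the list was 0.03, 0.05, 0.01 and −0.09 in the 4 comparisons, beside −0.02, −0.02, 0.02 and −0.06 over all genes. The NX female count was 6 without 5XFAD NX replicate 4. It was 1 without 5XFAD NX replicate 1, 2 or 5 or WT NX replicate 2, 2 without WT NX replicate 1, and 0 without WT NX replicate 3 or 4.

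Bambi, which encodes a membrane decoy receptor of the TGF-β and bone morphogenetic protein pathways and is a known β-catenin target, had the largest fold change of the list in all 4 comparisons, with log2FC of 2.50 and 2.85 in NX and CIH females and 3.01 and 3.48 in NX and CIH males (edgeR adjusted p = 0.0208, 6.48e-08, 9.11e-06 and 1.79e-08). Fzd9, a Frizzled receptor, had log2FC of 2.33, 2.40, 2.02 and 2.27 in the same order (adjusted p = 0.0292, 1.2e-05, 0.0288 and 0.00228). Rspo1, which encodes a secreted agonist of Wnt signaling, had log2FC of 1.25, 1.23, 1.64 and 1.76 (adjusted p = 0.0324, 0.000132, 0.00517 and 9.19e-05). Ptk7, a Wnt coreceptor, had log2FC of 2.19, 2.28, 2.27 and 2.63, and in NX males, where the adjusted p was 0.0891, it was not called. Tcf7l2, one of the TCF factors that carry the β-catenin signal to genes, had log2FC of −0.79, −1.08, −1.04 and −0.83, of which those in CIH females and NX males were calls (adjusted p = 4.55e-08 and 0.000642). Of the ligand list only Wnt2b passed the filter in the genotype comparisons, and it was called lower in 5XFAD CIH males (log2FC −1.62, SE 0.607, adjusted p = 0.0387). Fzd9 and Ptk7 had WT means below 1 CPM in all 4 comparisons and passed the filter only through 5XFAD, as did Pygo1 in CIH females, and Wnt2b in CIH males passed only through WT, so that their p-values carry the same limit as those of the antagonists. Of the 11 further antagonists, 2 to 4 were tested and none was called.

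For CIH against NX, no gene of the list was called by the quasi-likelihood test in any of the 4 comparisons or in the male interaction. At an unadjusted p below 0.05 there were 3 of 41 in WT females, 0 of 43 in 5XFAD females, 11 of 42 in WT males, 5 of 39 in 5XFAD males and 7 of 48 for the interaction. Over all genes there were 565 of 14583, 470 of 14578, 5964 of 14983, 473 of 14334 and 3857 of 15813 in the same order. In WT males 1 gene of the list was called by the likelihood ratio test, by DESeq2 and by limma on log2(FPKM + 0.1), and in the other 4 comparisons these tools called 0.

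**Figure D4:**
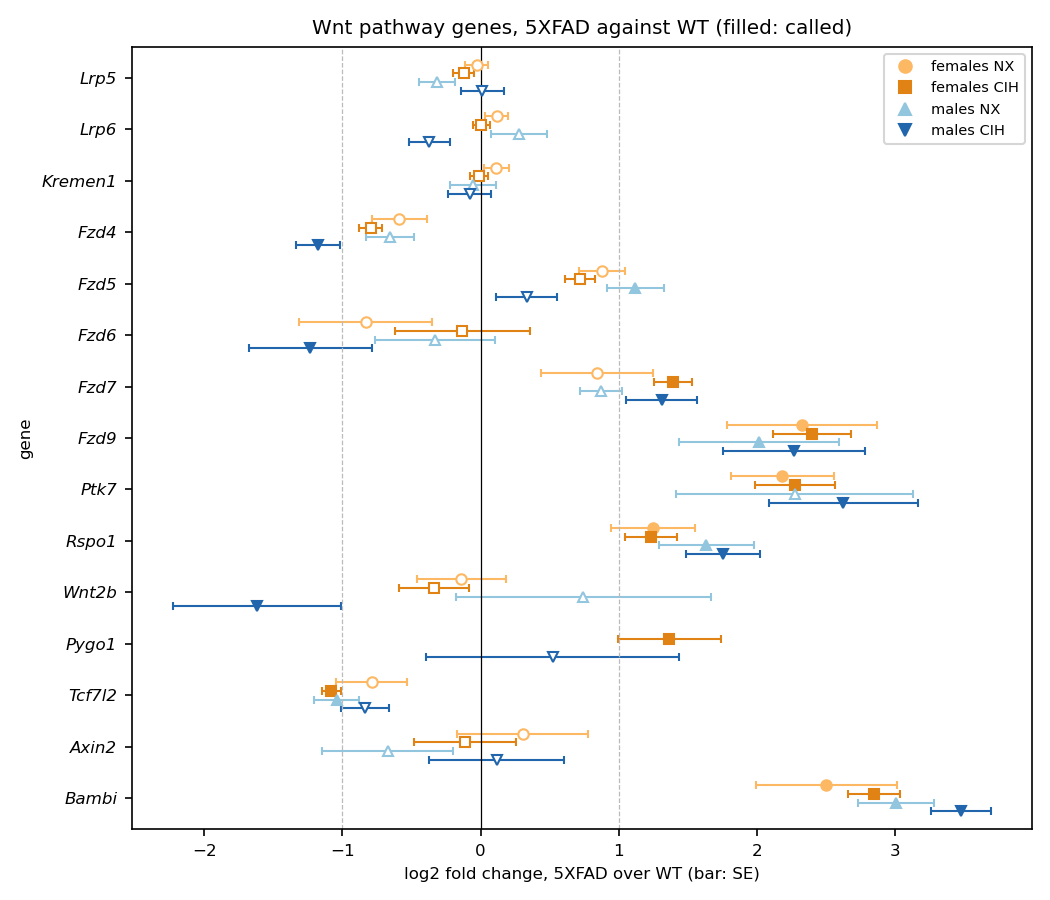
Log2FC of 5XFAD over WT for 15 Wnt pathway genes with SE as bars, in NX and CIH females and males; filled symbols passed an FDR of 0.05 and an absolute log2FC of 1, and dashed lines mark a log2FC of 1 in each direction. Bambi, Fzd9 and Rspo1 are filled in all 4 comparisons, whereas Lrp5, Lrp6, Kremen1 and Axin2 are open in all 4.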

How the data were processed

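CD11b+ microglia from 39 samples were sequenced in bulk (paired-end reads, NovaSeq). The authors had reads aligned to GRCm38/mm10 with HISAT2 (its version is not given in the sources used here) and deposited 1 table of raw counts per gene and 1 of FPKM values for each sex. The deposited FPKM values of females divide counts by gene length and the library total, and those of males by gene length and a scaled library size of 0.794 to 1.20 times the total, so FPKM levels were compared within a table only.

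From the counts, CPM was computed on TMM-scaled library sizes over the 4 groups of a table (edgeR 4.0.16, limma 3.58.1, R 4.3.3). Genes with more than 1 CPM in at least 3 samples were tested in edgeR with Benjamini-Hochberg adjustment, a false discovery rate below 0.05 and an absolute log2FC above 1, a filter, tool and limits taken from the study's methods. The quasi-likelihood F statistic, and filtering and fitting on the libraries of the compared groups only, were chosen here. The interaction was fitted over the 4 male groups. For a gene at 0 reads in a group, the fold is a lower bound against 3 reads in each library. Intervals and this limit cover counting error only. Sequenced totals of 13457293 to 25906121 reads set the precision. Alternatives were the likelihood ratio test, DESeq2 1.42.0, library size alone, no filter, a single fit over the 4 groups of a table, a replicate block, limma on FPKM values (log2 with 1 or 0.1 added), and leaving out each library. In simulated counts with 200 genes changed by a log2FC of 2, the test recovered 166 for WT NX against 5XFAD NX males (14514 genes, 2 false calls) and 146 for the interaction (15279 genes, 6 false calls). The changed genes were drawn above a mean read count that Wif1, Dkk2 and Dkk3 did not reach in WT NX males. Spread was taken from WT NX males alone. The recovery therefore does not apply to these genes or to their interactions. Each pair of libraries in a group (76 pairs) differed by more than sampling noise.

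The 6 antagonists, the pathway and marker lists and the tests were chosen with earlier results of these data known. Named genes are the 6, Lrp5, Lrp6, Kremen1, Kremen2 and Axin2, up to 3 called genes per pathway list and comparison, and the 3 genes most correlated with each antagonist; the other called genes of the pathway, and all members of the lists named as examples, were named after their values were seen. Promoter sequences came from RefSeq (GRCm38.p6).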

Additional observations from a re-analysis of the deposited data

Results flagged for a closer look

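Dixon's criterion flags a library far from the rest of its group, and chance meets it in about 1 of 20 groups of normally distributed values. That rate does not hold for groups near 0 reads: where the other libraries have 0 reads, any read meets it. Of 46 groups of antagonist values with any spread, 7 held such a library. Frzb accounted for 5 of them, all at a few reads: 0.6069 CPM in 5XFAD CIH female replicate 4, 0.705 CPM in 5XFAD NX female replicate 4, 0.06483 CPM in 5XFAD CIH male replicate 5, 0.9799 CPM in WT CIH male replicate 5 and 0.2295 CPM in WT NX male replicate 5. Dkk2 was 0.6917 CPM in WT CIH male replicate 5, the library that was also the highest for Frzb, against at most 0.0626 CPM in the other 4. Sostdc1 was 2.123 CPM in 5XFAD NX female replicate 3, the library with the highest choroid plexus sum of its group (277.6 CPM).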

How the results depend on the processing

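Dkk2 in both male genotype comparisons and Wif1 in CIH males, which passed the filter only through 5XFAD, were called under every alternative, and this adds no independent support. With limma on log2(FPKM + 1) the fold fell under the limit for Wif1 (0.87) and Dkk3 (0.49) in NX males and for Sfrp1 (−0.26) in CIH males, so that 1 antagonist was called in NX males. That setting also lowered the counts of genes called between genotypes, to 457 and 1020 in NX and CIH females and 708 and 1571 in NX and CIH males, those of Wnt pathway genes to 1, 3, 2 and 3, and that of WT males for CIH to 126. Its pseudocount shrinks low levels. Without the filter, 21 genes were called for CIH in WT females, 639 in WT males and 790 for the interaction. With all 4 groups in one fit, NX females had 1330 genes called and WT males 0 for CIH. The likelihood ratio test called 1 antagonist (Dkk3) for CIH in WT males, 1 gene for CIH in 5XFAD males and 175 for the interaction, and DESeq2 called 1 and 308 of the last. In WT males 1 Wnt pathway gene was called for CIH by the likelihood ratio test, DESeq2, library size alone, no filter and log2(FPKM + 0.1). The causes were not tested.

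Directions turned only among values that were not called. For CIH in 5XFAD females Wif1 was 0.067 on log2(FPKM + 1) and 0.26 on log2(FPKM + 0.1), and for the male interaction it was 0.31 and 0.34. The Sostdc1 interaction was −0.084 with library size alone, −0.086 on log2(FPKM + 1) and −0.36 on log2(FPKM + 0.1).

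Leaving out 1 library gave 27 (without WT NX replicate 3) to 1880 (without 5XFAD NX replicate 4) genes and 0 to 6 Wnt pathway genes in NX females, 3 to 5 Wnt pathway genes in NX males, 263 to 621 genes and 0 to 1 Wnt pathway genes for CIH in WT males, and 0 to 478 genes for the interaction. The log2FC for CIH ranged from −0.44 to 0.26 for Wif1 and from −0.27 to 0.26 for Dkk2 in 5XFAD females, from −0.33 to 0.27 for Dkk3 and from −0.97 to 0.048 for Sostdc1 in 5XFAD males, and from −0.47 to 0.068 for Sfrp1 in WT males. The interaction ranged from −0.51 to 3.20 for Dkk2 and from −0.68 to 0.33 for Sostdc1.

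Replicate numbers did not pair the samples: in no comparison did every same-numbered pair have a correlation of deviations above 0.1, and medians ran from −0.198 to 0.209. With the replicate block, 7 genes and 0 Wnt pathway genes were called in NX females, Dkk3 in NX males had an adjusted p of 0.143, and the log2FC turned to 0.16 for Wif1 with CIH in 5XFAD females and to −0.33 for the Sostdc1 interaction.

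Library size alone moved the median of all genes by over 0.1, to −0.169 and −0.21 in NX and CIH females, −0.164 and −0.432 in NX and CIH males, and −0.21 for the male interaction. Counts near the limit of 3 reads bound what can be said of Frzb and of WT levels of Wif1 and Dkk2.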

Other observations

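Markers of border macrophages, myeloid cells of the meninges and vessels that carry CD11b too, were called lower in 5XFAD for 7 of 8 genes in NX females, 6 of 8 in CIH females, 6 of 8 in NX males and 1 of 8 in CIH males, where 1.59%, 4.12%, 2.31% and 6.88% of all genes were called lower in the same order. Their part in the antagonist values was not tested.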
